A study of Mus musculus with 75 samples.

Results

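The smooth muscle contractile genes described here are 10 genes, Acta2, Actg2, Tagln, Cnn1, Cald1, Tpm1, Tpm2, Myl9, Myh9 and Actn1, chosen by name as a set of contractile genes of myofibroblasts, of 24984 genes counted in each of 44 RNA-seq libraries of mouse skin fibroblasts. They were followed through replicative senescence (RS), the growth arrest that primary cells reach after repeated passaging, and after changes in 3 transcription factors proposed to regulate RS. For the RS course, fibroblasts from the skin of 2-month-old female C57BL/6 mice, otherwise untreated, were collected at passages P1, P3, P5 and P7, with 4 RNA-seq libraries at each passage and with 4 ATAC-seq samples at P1 and 3 at each later passage. The other 28 libraries came from mouse skin fibroblasts carrying a lentivirus. For these the study used primary cells of newborn and of 2-month-old mice without tying either source to a library. Its methods name the C57BL/6 strain for the 2-month-old mice and no strain for the newborn mice. Pre-senescent (P4) cells expressed E2f4 under doxycycline control from a lentivirus that also carries EGFP (2 libraries) or carried the vector control, which expressed EGFP (2 libraries). P3 cells carried the E2f4 hairpin sh1 or a non-targeting hairpin, called nt below (3 libraries each). Cells whose passage is not tied to the libraries in the sources used here carried the Tead1 hairpins sh3 or sh4 or nt, and pre-senescent cells carried the Atf3 hairpins sh5 or sh6 or nt (3 libraries for each of the 6 groups). For such interventions the methods name P2 and P3 as the proliferating stage and P6 as the stage for acting on senescence. All knockdown groups, controls included, carried a hairpin vector, and E2f4 knockdown was represented by a single hairpin. The labels do not say which libraries came from separate animals or cultures, so the p-values measure the spread between these libraries, which may in part be technical.

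Contractile fibroblasts, or myofibroblasts, pull on their matrix through bundles of actin and myosin. Acta2 and Actg2 encode the smooth muscle alpha and gamma actins, Tpm1 and Tpm2 encode tropomyosins that wind around actin filaments, and Tagln (transgelin, SM22), Cnn1 (calponin) and Cald1 (caldesmon) encode proteins that bind actin and restrain or stabilise the filament. Myl9 encodes the regulatory light chain of smooth muscle and nonmuscle myosin, Myh9 the heavy chain of nonmuscle myosin IIA, and Actn1 the cross-linker alpha-actinin, all 3 of which are used by many cell types beyond muscle. Transcription of this group is classically driven by serum response factor (SRF), which binds the CArG box and is switched on by its actin-sensing partners MRTF-A and MRTF-B, with input from TGF-beta and from the YAP and TAZ coactivators that act through TEAD factors.

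Upstream sequence was read to show where such motifs lie beside the start sites whose chromatin and RNA were measured. RefSeq (GRCm38.p6) sequence of the 250 bases before the start site was available for 9 start sites of 8 members (no entry for Tagln or Actg2). Those shown are Acta2, Myl9 and Cnn1. Acta2 and Myl9 were the only ones of these 8 members with a match to the CArG box or to a CArG-like form. Cnn1 was the member with the largest change in RNA over passage, and no searched motif was found in its window. Each sequence runs 5′ to 3′ on the strand of the gene, and capitals mark the motif matches.
Acta2, chr19:34255374-34255623, minus strand: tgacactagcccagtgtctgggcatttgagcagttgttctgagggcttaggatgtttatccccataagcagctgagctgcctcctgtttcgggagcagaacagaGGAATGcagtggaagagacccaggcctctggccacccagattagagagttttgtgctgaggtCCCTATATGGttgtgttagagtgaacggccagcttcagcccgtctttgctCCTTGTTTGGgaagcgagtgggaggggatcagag
Myl9, chr2:156775214-156775463, plus strand: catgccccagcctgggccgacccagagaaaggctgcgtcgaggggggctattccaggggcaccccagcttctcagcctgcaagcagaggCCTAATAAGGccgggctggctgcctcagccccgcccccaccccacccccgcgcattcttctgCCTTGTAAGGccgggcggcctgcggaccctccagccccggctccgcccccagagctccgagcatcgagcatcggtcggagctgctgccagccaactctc
Cnn1, chr9:22099003-22099252, plus strand: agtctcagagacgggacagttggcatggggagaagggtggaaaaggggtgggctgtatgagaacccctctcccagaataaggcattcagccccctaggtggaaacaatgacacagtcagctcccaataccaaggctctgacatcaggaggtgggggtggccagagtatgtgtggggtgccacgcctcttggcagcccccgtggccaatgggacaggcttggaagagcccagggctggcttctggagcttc
Motifs were searched on both strands: the CArG box, a CArG-like form in which 1 of the 6 inner bases may be C or G, the TEAD motif GGAATG, and the AP-1 motifs TGACTCA and TGAGTCA. Every CArG box is also counted as CArG-like. The Myl9 window held a CArG box, CCTAATAAGG, 161 to 152 bases before the start site and a CArG-like match, CCTTGTAAGG, 99 to 90 bases before it. The Acta2 window held 2 CArG-like matches, CCCTATATGG at 84 to 75 bases and CCTTGTTTGG at 34 to 25 bases, and a TEAD match at 146 to 141 bases. TEAD matches also lay 56 to 51 bases before the Tpm1 start site and 153 to 148 bases before the upstream Cald1 start site, and an AP-1 match lay 197 to 191 bases before the downstream Cald1 start site. The same letters occurred in 1.47% (CArG box), 8.59% (CArG-like), 12.6% (TEAD) and 4.46% (AP-1) of 32851 mouse promoter windows of this length, against 1, 2, 3 and 1 of the 9 windows of the members. A match is a run of letters, not a measured binding site.

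The members lie at chr19:34240336-34255585 (Acta2, minus strand), chr6:83512909-83536251 (Actg2, minus), chr9:45929628-45936058 (Tagln, minus), chr9:22099221-22109221 (Cnn1, plus), chr6:34598495-34775469 (Cald1, plus), chr9:67022590-67049672 (Tpm1, minus), chr4:43513726-43523583 (Tpm2, minus), chr2:156775408-156781657 (Myl9, plus), chr15:77760585-77842175 (Myh9, minus) and chr12:80167542-80260420 (Actn1, minus) of GRCm38.p6, whose primary coordinates are those of mm10. Counts were taken over the exons of these protein-coding genes. For Tagln, 6.05% of the exon bases (96 bases) are shared with Pcsk7 on the other strand, and reads were counted without regard to strand, so the transcripts cannot be told apart there. Actin and tropomyosin genes also have closely related copies between which reads may have been divided.

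Library totals ran from 9147324 to 27552949 counts, and every member was counted at least 145 times in every library, so all 10 passed the low-count filter in all 5 experiments. Fibroblast markers (Col1a1, Col1a2, Pdgfra, Dcn, Lum and Thy1) were detected in every group. No pair of replicates matched within sampling noise, the chi-square of their counts per degree of freedom being 2.74 or more in all 50 pairs. Atf3_sh5 replicate 3 stood apart from its group, with 55.9 and 59.9 against replicates 1 and 2, which gave 3.2 between themselves. Bulk RNA cannot tell a smaller share of expressing cells from less RNA per cell.

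Levels of different genes were compared as CPM (counts relative to the library total, scaled by TMM factors) per kilobase of annotated exon. Exon length was taken over all curated transcripts of a gene together, so genes with several transcripts may read too low in this order. At P1 the order was led by Acta2 with 752 ± 153 CPM per kb (SD, n = 4), followed by Tagln with 433 ± 79.6, Myh9 with 323 ± 23.9 and Cald1 with 317 ± 28.1. Myl9 (254 ± 48.5), Tpm1 (227 ± 27.5), Actn1 (187 ± 26.7), Actg2 (123 ± 32.1) and Tpm2 (88.5 ± 15.4) followed, and Cnn1 was lowest by a wide margin with 6.89 ± 1.44. Several neighbours in this order lay within 1 SD of each other, among them Myh9 and Cald1, and Myl9 and Tpm1. By P7, Tagln had passed Acta2, with 1494 ± 223 against 1161 ± 204 CPM per kb, and Cnn1 had reached 101 ± 25.7, within 1 SD of Actg2 at 135 ± 45.2. Myl9 (569 ± 81.2) and Cald1 (521 ± 55.5) overlapped and came next, ahead of Myh9 (379 ± 50.8), Tpm1 (330 ± 29.2), Actn1 (280 ± 52.7) and Tpm2 (151 ± 27.2).

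Between P1 and P7, 8 of the 10 contractile genes rose and none fell (edgeR quasi-likelihood test, adjusted p under 0.05), with Cnn1, Tagln and Myl9 more than doubling. Over all 13442 genes tested, 30.5% rose and 31.9% fell, and 8.1% rose by more than 2-fold, against 3 members. The median log2 fold change was 0.67 over the members and -0.01 over all genes. The members were chosen with earlier results of these data known, so they are not an unselected set beside all genes. Actg2 and Myh9 did not pass.

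Cnn1 changed most. Its libraries read 14.0, 16.9, 9.91 and 14.1 CPM at P1, then 66.8, 75.7, 73.3 and 99.99 CPM at P3, 81.7, 88.9, 73.8 and 75.8 CPM at P5, and 188, 273, 190 and 153 CPM at P7. The P1 libraries lay far below all others and the P7 libraries above all others, while P3 and P5 overlapped. The level at P7 was 14.7-fold that at P1, a log2 fold change of 3.87 ± 0.18 (SE; edgeR adjusted p = 2.56e-12).

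Tagln, the other actin-binding gene that more than doubled, had 637, 767, 533 and 811 CPM at P1 and 2446, 2838, 2066 and 2131 CPM at P7. Its libraries at P3 (1176 to 1855 CPM) and P5 (1352 to 1740 CPM) lay between and overlapped each other. The log2 fold change from P1 to P7 was 1.79 ± 0.15 (edgeR adjusted p = 6.42e-09). Cald1 rose less, from 1283 to 1555 CPM at P1 to 2034 to 2519 CPM at P7 (log2 fold change 0.72 ± 0.10, edgeR adjusted p = 5.68e-06).

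Of the smooth muscle actins, Acta2 rose and Actg2 did not pass. Acta2 had 1709, 2154, 1509 and 2364 CPM at P1, 2820, 2916, 3164 and 4471 CPM at P3, 2724, 2401, 2179 and 2847 CPM at P5, and 2757, 3760, 2596 and 2832 CPM at P7. Its 4 libraries at P3 and at P7 all lay above every P1 library, and the highest value of the course was P3 replicate 4. The log2 fold change from P1 to P7 was 0.63 ± 0.16 (edgeR adjusted p = 0.00205). Actg2 had 141, 182, 114 and 209 CPM at P1 and 137, 264, 140 and 170 CPM at P7, a difference of 0.13 ± 0.28 on the log2 scale with a 95% interval from -0.45 to 0.72 (edgeR adjusted p = 0.692). The groups overlapped almost fully, and this gene had the widest replicate spread of the members.

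Among the myosin genes, Myl9 rose and Myh9 did not pass. Myl9 had 253, 299, 214 and 335 CPM at P1 and 612, 740, 537 and 577 CPM at P7 (log2 fold change 1.16 ± 0.18, edgeR adjusted p = 1.73e-05), with no overlap. Myh9 was already high at P1 with 2206 to 2570 CPM and had 2266 to 3127 CPM at P7 (0.23 ± 0.10, edgeR adjusted p = 0.0561). Without P7 replicate 1, the lowest of its group, Myh9 passed with a log2 fold change of 0.32. Both tropomyosins rose, Tpm2 by 0.77 ± 0.14 and Tpm1 by 0.54 ± 0.12 on the log2 scale (edgeR adjusted p = 8.64e-05 and 0.00045), and Actn1 rose by 0.58 ± 0.13 (edgeR adjusted p = 0.000527), although its lowest P7 library (846 CPM) lay just under its highest P1 library (850 CPM).

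**Figure D1:**
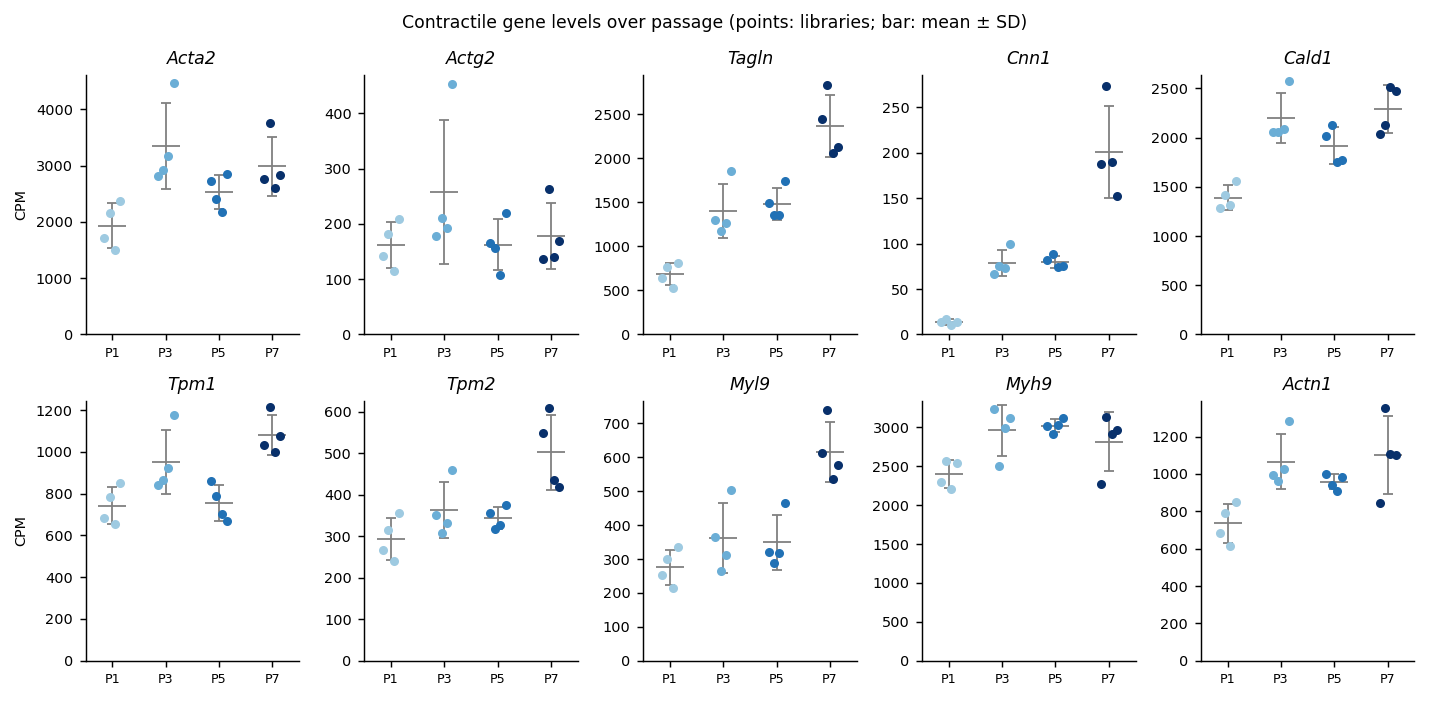
CPM (vertical axis, from 0, a separate scale for each gene) of each contractile gene in the 4 RNA-seq libraries of P1, P3, P5 and P7; points are libraries and bars the mean ± SD. Cnn1 and Tagln sit lowest at P1 and highest at P7, Acta2 is highest in P3 replicate 4 at 4471 CPM, and the groups of Actg2 overlap.

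The rise was not even over the course. From P1 to P3, 7 members rose and none fell (edgeR), against 16% and 17.5% of all genes, and Cnn1 and Tagln were the 2 that more than doubled, against 2.4% of all genes. Cnn1 rose by 2.53 ± 0.18, Tagln by 1.03 ± 0.15, Acta2 by 0.79 ± 0.16, Cald1 by 0.66 ± 0.10 and Actn1 by 0.54 ± 0.13 on the log2 scale. Tpm1 (0.36 ± 0.12, edgeR adjusted p = 0.0227) and Myh9 (0.30 ± 0.10, edgeR adjusted p = 0.0277) passed more narrowly. Their calls rested on single libraries: Tpm1 no longer passed without P1 replicate 1 (0.32), P1 replicate 3 (0.30) or P3 replicate 4 (0.24), and Myh9 without P1 replicate 1 (0.28), P1 replicate 3 (0.26), P3 replicate 1 (0.26), P3 replicate 3 (0.30) or P3 replicate 4 (0.28).

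From P3 to P5 no member rose and 1, Tpm1, fell (-0.33 ± 0.12, edgeR adjusted p = 0.0374), against 13.4% of all genes that rose and 15.3% that fell. The call for Tpm1 was lost without P3 replicate 3 (-0.34), P3 replicate 4 (-0.21), P5 replicate 3 (-0.30) or P5 replicate 4 (-0.28), and 3 members passed as lower without P3 replicate 1. Acta2 (-0.40 ± 0.16) and Actg2 (-0.67 ± 0.28) had edgeR adjusted p = 0.0661 and 0.0765. With replicate number as a block in the fit, both passed as lower (-0.39 and -0.63, edgeR adjusted p = 0.0303 and 0.0162). Cnn1 differed by 0.02 ± 0.16 with a 95% interval from -0.31 to 0.35.

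A further rise came between P5 and P7, in which 5 members rose and none fell (edgeR), against 7.67% and 9.1% of all genes. Cnn1 rose by 1.33 ± 0.16 (edgeR adjusted p = 1.1e-05), the only member to more than double in this step, as 1.19% of all genes did. Myl9 rose by 0.82 ± 0.18, Tagln by 0.67 ± 0.15, Tpm2 by 0.55 ± 0.14 and Tpm1 by 0.52 ± 0.12 (edgeR adjusted p from 0.0039 to 0.0105), each with all P7 libraries above all P5 libraries. Acta2 (0.23 ± 0.16) and Cald1 (0.26 ± 0.10), which had risen by P3, did not pass here. Set directly against P3, P7 was higher for 4 members, Cnn1, Myl9, Tagln and Tpm2, and lower for none, with Cnn1 again the only one to more than double. The shares of all genes in that comparison were 24.8% higher, 26.5% lower and 4.44% higher by more than 2-fold.

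With library totals alone in place of TMM factors, the median of all genes moved to -0.22 on the log2 scale between P1 and P7, and 2698 genes were then called higher and 5879 lower, against 4104 and 4294 with TMM. The same change gave 1212 higher and 3454 lower against 2144 and 2349 from P1 to P3 (median -0.11), 729 and 1768 against 1031 and 1223 from P5 to P7, and 2639 and 4295 against 3338 and 3558 from P3 to P7. All 8 members still passed as higher between P1 and P7, while the small difference of Actg2 turned to -0.08, and Tpm1 (0.24) and Myh9 (0.18) no longer passed between P1 and P3. Other cell types also differed between P1 and the later passages. The summed level of 5 macrophage markers was 262 to 403 CPM at P1 and 9.76 to 47.5 CPM at P3 to P7, that of 3 endothelial markers 119 to 127 against 5.57 to 35.8 CPM, that of 4 keratinocyte markers 40.0 to 288 against 1.37 to 3.28 CPM, and that of 8 skeletal muscle markers 135 to 223 against 28.9 to 108 CPM. Their part in the rise from P1 was not tested. The 7 markers of pericytes and vascular smooth muscle (Rgs5, Cspg4, Kcnj8, Abcc9, Notch3, Mcam and Myh11) gave overlapping sums of 175 to 295 CPM at P1 and 137 to 295 CPM at P7, with Kcnj8 at 0 at P5 and P7. Single markers moved within these sums. Of 6 tested, 2 rose and 2 fell between P1 and P7, 3 of them by more than 2-fold (median log2 fold change 0.43). From P5 to P7, 2 rose and 1 fell. Their part in the rise was not tested either.

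Other genes of the contractile program did not all follow. Of 11 tested genes from a list of 12 further smooth muscle contractile genes, 4 rose and 3 fell between P1 and P7. Over all genes, 30.5% rose and 31.9% fell. Kcnmb1, the beta subunit of the large-conductance potassium channel of smooth muscle, rose by 2.35 ± 0.28 on the log2 scale, Lmod1 (leiomodin) by 1.54 ± 0.21 and Csrp1 by 0.92 ± 0.13. Des (desmin), the muscle intermediate filament, fell by 3.99 on the log2 scale, from 30.4 ± 4.2 to 1.91 ± 0.68 CPM (SD, n = 4). Skeletal muscle markers also fell between P1 and P7, 6 of 7 tested (median log2 fold change -6.86). The part of skeletal muscle cells in the fall of Des was not tested. Myh11, the smooth muscle myosin heavy chain and the most specific marker of the mature muscle, had 37.7, 19.8, 19.4 and 57.7 CPM on average at P1, P3, P5 and P7. It fell by 0.94 ± 0.31 from P1 to P3 and rose by 1.58 ± 0.31 from P5 to P7 (edgeR adjusted p = 0.0235 and 0.00144), and P7 did not pass against P1 (edgeR adjusted p = 0.0773).

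Of 18 cytoskeletal actomyosin and adhesion genes, 10 rose and 2 fell between P1 and P7, against 30.5% and 31.9% of all genes. Zyx (zyxin) rose by 0.94 ± 0.11 and Vcl (vinculin) by 0.66 ± 0.15. Among 8 targets of YAP-TEAD or SRF, 7 rose and none fell. Ccn2 (connective tissue growth factor) rose from 310 ± 107 to 1098 ± 223 CPM, and Ankrd1, Egr1 and Fhl2 rose by 1.28 ± 0.16, 1.27 ± 0.21 and 1.21 ± 0.13. Of 10 myofibroblast matrix genes 9 rose and 1 fell. Fn1 (fibronectin) rose by 2.35 ± 0.15 and Col3a1 by 2.00 ± 0.14, and Ltbp2 fell by 1.54 on the log2 scale.

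Of 18 regulators, 5 rose and 5 fell between P1 and P7, against 30.5% and 31.9% of all genes. Srf (-0.20 ± 0.14), Mrtfa (0.11 ± 0.08) and Myocd (-0.51 ± 0.40, at 1.27 to 2.13 CPM on average in the passages) did not pass, and Mrtfb fell by 0.36 on the log2 scale. The coactivators Yap1 and Wwtr1 (TAZ) rose by 0.47 ± 0.07 and 0.72 ± 0.08. Among the TEAD factors, Tead1 (0.12 ± 0.12), Tead2 (0.16 ± 0.10) and Tead3 (0.23 ± 0.11) did not pass, and Tead4, at 6.76 CPM at P1, fell by 1.79 on the log2 scale. Tead1 was not level in between, with 307.4 to 381 CPM at P1 and, without overlap, 416.6 to 545.1 CPM at P3. It had 338.5 to 455.6 CPM at P5 and 279.5 to 416.6 CPM at P7. In the TGF-beta pathway Smad3, Smad7 and Tgfb3 rose by 0.94 ± 0.11, 0.45 ± 0.12 and 0.40 ± 0.11. Both receptors fell, Tgfbr1 by 0.72 and Tgfbr2 by 0.44 on the log2 scale, as did Smad2 by 0.26, while Tgfb1 (-0.08 ± 0.12) and Tgfb2 (0.50 ± 0.27) did not pass.

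Over the 16 libraries of the course, each member was compared with the mean of the other 9. Actn1, Acta2 and Tagln followed that mean most closely, with Pearson r of 0.948, 0.914 and 0.905, and Myh9 (0.613) and Actg2 (0.534) least. Among all other genes, the 8 most like the mean of the members were Fhl1, Ccn2, Kcnmb1, Vcl, F2r, Cd44, Clic4 and Rassf6, with r from 0.955 (Fhl1) to 0.924 (Rassf6). Fhl1, a LIM protein of muscle, had 61.8 ± 18.6 CPM at P1 and 142 ± 27.5 CPM at P7. These are descriptions over libraries that share passage, depth and scaling, and no p was computed.

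Chromatin at the start sites was read from the ATAC-seq peak lists, which hold peaks called in each sample but no read counts. The strongest peak within 1 kb of the start site was expressed as its percentile of -log10 p among all peaks of the sample, so that 100 is the strongest peak. All 10 members had a peak in all 13 samples, except Actg2 in P7 replicate 1, as did 91.4% of 13425 genes. Between P1 and P7, the values did not overlap for 6 members, 4 of them higher at P7 and 2 lower, against 13.1% and 32% of all genes. The smallest p that 4 against 3 samples allow is 0.0286 (exact permutation test, two-sided), reached by Cnn1, Tagln, Acta2 and Actg2. None passed after adjustment over all genes, nor did any other gene (lowest adjusted p 0.0794).

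The promoter of Cnn1 moved most and in the direction of its RNA. Its peak stood at percentiles 53.6, 66.3, 52.5 and 60.9 at P1 and 77.8, 85.5 and 86.0 at P7, a difference of 24.8, with P3 (60.4 to 84.4) and P5 (63.2 to 80.5) between and overlapping both. The Tagln peak rose from 83.3 to 86.3 at P1 to 91.3 to 93.7 at P3 and stood at 87.8 to 92.8 at P7. Tpm1 (95.8 to 97.0 at P1, 97.5 to 98.4 at P7) and Cald1 (94.5 to 97.1 and 97.6 to 98.9) differed by 1.6 and 2.7 percentile points near the top of the scale. The percentiles of the actins were lower at P7, as were those of 32% of all genes. Acta2 had 90.4 to 93.4 at P1 and 83.5 to 88.9 at P7, and Actg2 had 42.4 to 52.5 at P1 and 0 (no peak), 35 and 41.1 at P7. The percentile is a rank among the peaks of a sample, and the fold enrichment of the same Acta2 peak overlapped (6.47 to 7.59 at P1, 5.88 to 7.43 at P7), as did the bases covered around its start site (1537 to 1601 and 1497 to 1580). Myl9 (86.8 to 93.3 and 81.5 to 90.5), Tpm2, Actn1 and Myh9 overlapped. Measured as bases covered by peaks within the window instead, 3 members did not overlap, all lower at P7 (Tpm1, Tpm2 and Actn1), so the direction of Tpm1 depended on the measure, and neither Cnn1 nor Tagln was separated. The number of peaks per sample also differed, 168982 to 186562 at P1 and 200376 to 231558 at P7, and its part in these differences was not tested.

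**Figure D2:**
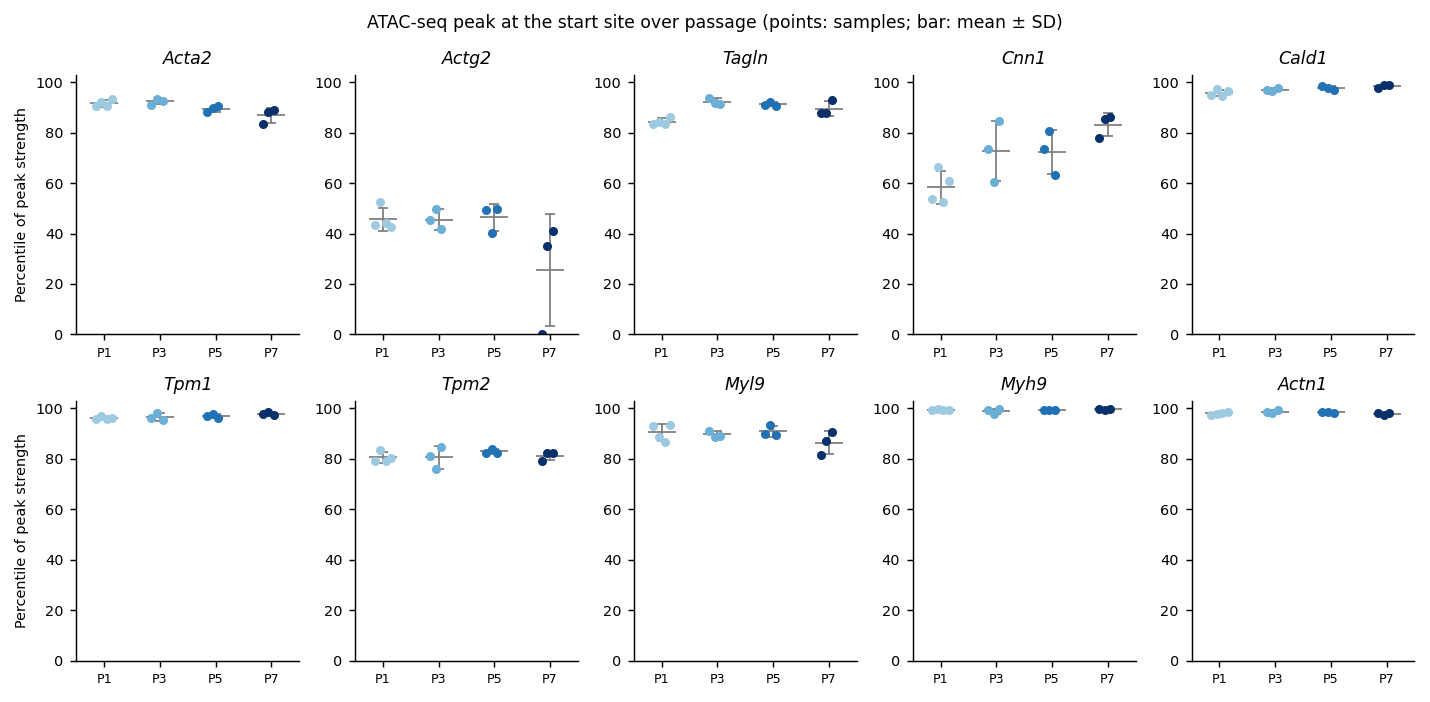
Percentile of the strongest ATAC-seq peak within 1 kb of the start site (vertical axis, 0 to 100, 0 meaning no peak) for each contractile gene; points are samples (4 at P1, 3 at each later passage) and bars the mean ± SD. Cnn1 climbs from a mean of 58.3 to 83.1, Acta2 drops from 91.6 to 86.8, and Actn1 and Myh9 stay near the top of the scale.

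E2f4 overexpression was examined in pre-senescent cells. E2f4 itself stood at 1118 and 1180 CPM with the transgene and at 35.5 and 47.5 CPM with the vector (log2 fold change 4.79 ± 0.15, edgeR adjusted p = 7.07e-08), in which reads of the transgene cannot be told apart from those of the gene. Of the contractile genes 6 rose and 1 fell, against 28.9% and 28.2% of all genes, and none changed by more than 2-fold. Myh9 rose most, from 1776 and 2091 CPM to 3222 and 3287 CPM (0.75 ± 0.10, edgeR adjusted p = 0.000153), a clear separation of both pairs. Tpm2 (0.66 ± 0.13), Myl9 (0.59 ± 0.12), Tagln (0.56 ± 0.14), Cnn1 (0.42 ± 0.12) and Actn1 (0.30 ± 0.09) rose as well, and Cald1 fell from 2806 and 2731 CPM to 2151 and 1923 CPM (-0.44 ± 0.10, edgeR adjusted p = 0.00251). The actins did not pass: Acta2 had 4336 and 4801 CPM against 3686 and 4794 CPM (0.11 ± 0.12), and Actg2 138 and 164 CPM against 171 and 191 CPM (-0.26 ± 0.12). With 2 libraries a group, the calls for Cnn1 (0.40), Actn1 (0.26) and Cald1 (-0.36) were lost without E2f4_OE replicate 2 and that for Actn1 (0.33) without E2f4_OE replicate 1, and 9 members passed without vector replicate 2. The differences of Acta2 (0.31) and Tpm1 (0.30) then passed too, as did that of Actg2 (-0.34) without vector replicate 1.

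After E2f4 overexpression, the lists around the members were set beside all genes, of which 28.9% rose and 28.2% fell. Among the lists named here, the cytoskeletal genes stood furthest above the share that rose. Of 18 cytoskeletal genes 12 rose and none fell, with Tagln2 (1.25 ± 0.10), Zyx (1.23 ± 0.19) and Myl6 (1.21 ± 0.15), the essential light chain, in front. Of 10 matrix genes 4 fell and none rose, Lox and Fbn1 by 1.06 and 1.00 on the log2 scale, and among 10 tested further smooth muscle genes 2 rose (Smtn, smoothelin, 1.03 ± 0.11, and Csrp1, 0.88 ± 0.10) and 4 fell, led by Itga8 (-1.22 ± 0.11). Of the 8 YAP-TEAD and SRF targets 2 rose and 4 fell, and of the 18 regulators 7 rose and 2 fell, with Tead4 (1.91 ± 0.21) and Smad3 (1.08 ± 0.10) up and Tgfb2 (-1.38 ± 0.12) down. The pericyte and vascular smooth muscle markers summed to 591 and 626 CPM with E2f4 against 462 and 536 CPM with the vector, with all 7 detected. Of 6 tested, 2 rose and 3 fell (median log2 fold change -0.23), and their part in these differences was not tested.

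Knockdown of E2f4 in P3 cells also left most contractile genes higher. E2f4 stood at 21.6, 20.4 and 21.8 CPM with sh1 and at 59.6, 60.8 and 59.6 CPM with nt (-1.50 ± 0.09, edgeR adjusted p = 2.14e-07). Of the members 8 rose and 1 fell, against 10% and 7.79% of all genes, and the median log2 fold change was 0.44 over the members and -0.01 over all genes. Acta2 rose from 3542 to 3583 CPM with nt to 4424, 4915 and 4939 CPM with sh1 (0.42 ± 0.06, edgeR adjusted p = 0.000203). Actg2 rose from 241 to 252 CPM to 314, 345 and 390 CPM (0.51 ± 0.07), and Cnn1 from 234 to 247 CPM to 330, 378 and 350 CPM (0.55 ± 0.06). In each of these every sh1 library lay above every nt library. Myl9 rose most, by 0.69 ± 0.08 (edgeR adjusted p = 5.39e-05), followed by Tpm2 (0.49 ± 0.09), Tagln (0.46 ± 0.06), Tpm1 (0.31 ± 0.06) and Cald1 (0.28 ± 0.05).

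Myh9 was the exception after E2f4 knockdown. It fell from 2718, 2601 and 2839 CPM to 1716, 1499 and 1684 CPM (-0.74 ± 0.06, edgeR adjusted p = 4.59e-06), having risen with E2f4 overexpression. Actn1 (0.13 ± 0.05) did not pass (edgeR adjusted p = 0.111), though it passed with DESeq2 and without E2f4_sh1 replicate 3. Cnn1, Myl9, Tagln and Tpm2 rose after both overexpression and knockdown, in experiments with separate cells, passages and controls. The share of all genes that rose after both was not computed. Cald1 fell after overexpression and rose after knockdown, the reverse of Myh9. The 2 experiments were not tested against each other.

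**Figure D3:**
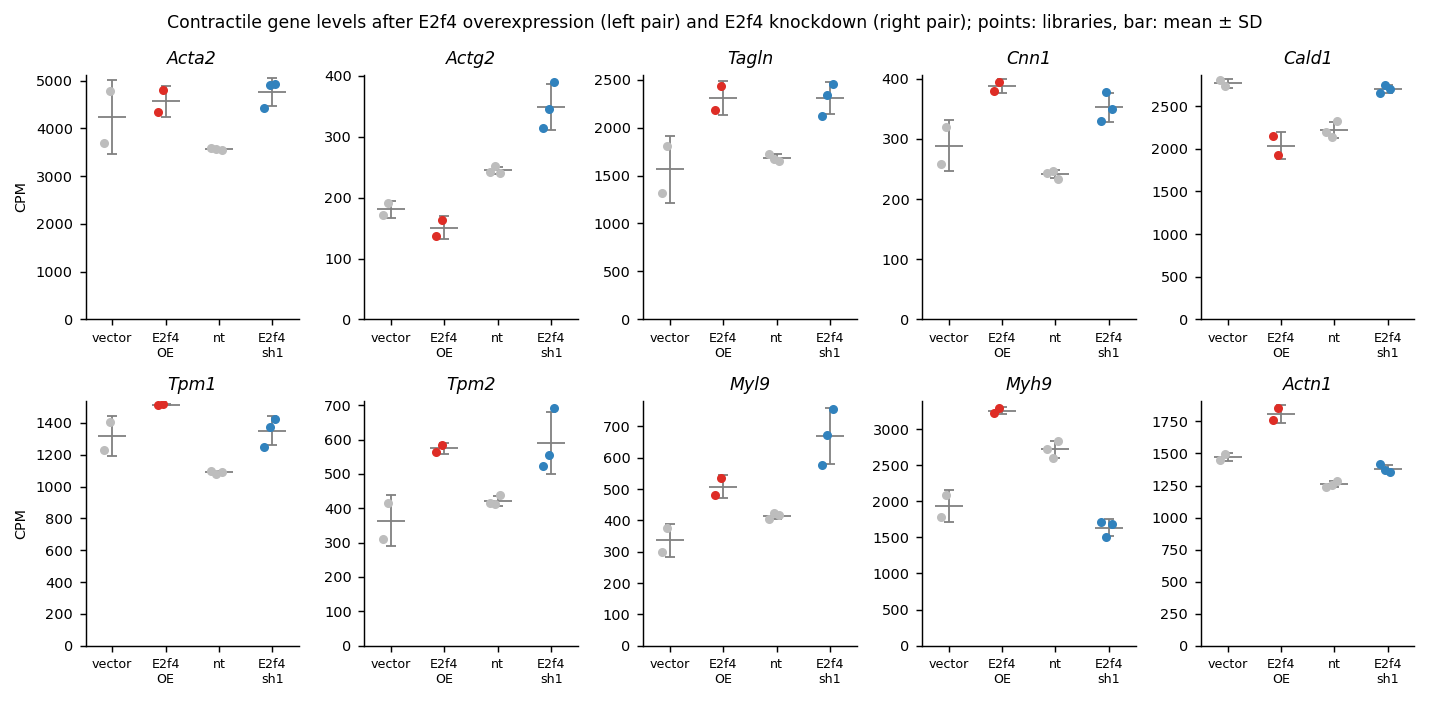
CPM (vertical axis, from 0, a separate scale for each gene) of each contractile gene in the libraries of E2f4 overexpression (vector and E2f4 OE, 2 each) and E2f4 knockdown (nt and sh1, 3 each); points are libraries and bars the mean ± SD. Myh9 is higher with overexpression and lower with knockdown, Cald1 the opposite, and Myl9 is higher in both.

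Smooth muscle genes outside the members moved with them after E2f4 knockdown. Of 10 tested, 8 rose and none fell, against 10% and 7.79% of all genes. Mylk, the myosin light chain kinase, rose by 1.18 ± 0.08, Itga8 by 1.12 ± 0.07 and Myh11 by 1.03 ± 0.08. Of 18 cytoskeletal genes 10 rose and 1, Zyx (-0.31 ± 0.07), fell. Of 10 matrix genes 1 rose and 6 fell, Col1a1 by 0.42 and Fbn1 by 0.50 on the log2 scale. Of the 8 YAP-TEAD and SRF targets 2 rose and 1 fell. Of 18 regulators only Tgfb3 passed (0.50 ± 0.06). The sum of the pericyte and vascular smooth muscle markers, which include Myh11, was 708 to 777 CPM with sh1 and 452 to 496 CPM with nt, with all 7 detected. Of 6 tested, 3 rose and none fell (median log2 fold change 0.51). The sum of the fibroblast markers was 20290 to 22990 against 26770 to 27560 CPM, and their part in these differences was not tested.

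After Tead1 knockdown some contractile genes fell, each by less than 2-fold, and none rose. Tead1 stood at 572, 508 and 545 CPM with nt, at 268, 284 and 285 CPM with sh3 (-0.96 ± 0.04) and at 315, 313 and 320 CPM with sh4 (-0.78 ± 0.04, edgeR adjusted p = 4.63e-17 and 8.58e-15). With sh3, 6 members fell and none rose, against 17.7% and 17.6% of all genes, and with sh4, 4 fell and none rose, against 14.7% and 14.4%. Both hairpins were compared with the same 3 nt libraries, so their values are given side by side. Their target sequences, as listed by the study, overlap almost entirely, so effects shared by both are not independent evidence and may include shared off-target effects.

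Actg2 fell most with either hairpin, from 517, 506 and 524 CPM with nt to 333, 320 and 335 CPM with sh3 (-0.65 ± 0.04, edgeR adjusted p = 3.89e-14) and to 371, 377 and 347 CPM with sh4 (-0.50 ± 0.04, edgeR adjusted p = 2.09e-11). Acta2 stood at 6027, 6228 and 5952 CPM with nt, at 4542, 4191 and 4317 CPM with sh3 (-0.48 ± 0.03) and at 4852, 5066 and 4987 CPM with sh4 (-0.29 ± 0.03). For both actins the 3 groups were fully separated, nt highest and sh3 lowest. Cnn1 had 427, 414 and 409 CPM with nt, 317, 285 and 318 CPM with sh3 (-0.44 ± 0.04) and 359, 328 and 350 CPM with sh4 (-0.27 ± 0.04), and Tpm1 fell by 0.26 and 0.24 on the log2 scale.

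Tagln (-0.14 ± 0.04, edgeR adjusted p = 0.00421) and Tpm2 (-0.12 ± 0.04, edgeR adjusted p = 0.0217) passed with sh3 and not with sh4. Without Tead1_sh3 replicate 2 neither passed (-0.10 and -0.08), and without Tead1_nt replicate 3 Tpm2 did not (-0.11). Myl9 (0.02 ± 0.04 and 0.07 ± 0.04), Cald1 (0.00 ± 0.03 and 0.06 ± 0.03), Myh9 and Actn1 did not pass with either hairpin, and for Cald1 the 95% intervals ran from -0.07 to 0.07 and from -0.01 to 0.13. For Myl9 they ran from -0.06 to 0.09 and from -0.01 to 0.15, for Myh9 from -0.12 to 0.04 and from -0.06 to 0.11, and for Actn1 from -0.15 to 0 and from -0.04 to 0.11. The actins, calponin and Tpm1 were thus lower with both hairpins, whose target sites overlap. The myosin genes, caldesmon and alpha-actinin did not pass with all libraries. Without Tead1_nt replicate 2, Actn1 (-0.10) and Myh9 (-0.09) passed as lower with sh3.

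Set directly against each other, the hairpins differed for 3 members, higher with sh4 than with sh3, against 3.34% of all genes higher and 4.03% lower. These were Acta2 (0.19 ± 0.03, edgeR adjusted p = 0.000415), Cnn1 (0.17 ± 0.04) and Actg2 (0.15 ± 0.04). Tead1 was itself higher with sh4 than with sh3 by 0.18 ± 0.04 on the log2 scale. The calls for Cnn1 (0.12 and 0.15) and Actg2 (0.13 and 0.14) were lost without Tead1_sh3 replicate 2 or Tead1_sh4 replicate 1, and that for Actg2 (0.12) without Tead1_sh4 replicate 2.

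Of 10 further smooth muscle genes tested, 1 rose and 7 fell with sh3, and 5 fell with sh4 and none rose. Over all genes, 17.6% rose and 17.7% fell with sh3, and 14.4% rose and 14.7% fell with sh4. Lmod1 fell by 0.61 and 0.31 and Myh11 by 0.57 and 0.50 on the log2 scale with sh3 and sh4. Of 18 cytoskeletal genes 9 fell and 4 rose with sh3, and 5 fell and 2 rose with sh4. Myl6 fell by 1.01 and 0.70 and Vcl by 0.50 and 0.31. Targets of YAP-TEAD and SRF were divided, 2 up and 2 down with each hairpin: Ankrd1 (-0.36 ± 0.06 and -0.26 ± 0.06) and Ccn2 (-0.29 ± 0.03 and -0.12 ± 0.03) fell, while Egr1 (0.39 ± 0.05 and 0.38 ± 0.05) and Amotl2 (0.23 ± 0.04 and 0.16 ± 0.04) rose. Of 18 regulators, a list that includes Tead1, 8 fell and 4 rose with sh3 and 7 fell and 5 rose with sh4. Mrtfa fell by 0.41 and 0.29 on the log2 scale. Of the matrix genes 4 fell and 3 rose with each hairpin. The pericyte and vascular smooth muscle markers summed to 613 to 675 CPM with nt and 664 to 724 CPM with the hairpins. Of these 7 markers, 1 rose and 2 fell with sh3 (median log2 fold change -0.14) and 2 rose and 4 fell with sh4 (median -0.50). Their part in these differences was not tested.

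Among the contractile genes, Acta2, Actg2, Cnn1, Tagln, Myl9, Tpm2 and Myh9 fell with the Atf3 hairpin sh5 and rose with sh6, while Tpm1, Actn1 and Cald1 did not. The share of all genes with this joint pattern was not computed. Atf3 was low throughout, at 3.31, 2.85 and 2.77 CPM with nt (78, 52 and 60 counts), 1.46, 2.10 and 0.451 CPM with sh5 (27, 41 and 8 counts) and 1.51, 1.56 and 2.09 CPM with sh6 (26, 26 and 36 counts). The sh5 libraries passed as lower (-1.14 ± 0.39, edgeR adjusted p = 0.0447) and the sh6 libraries did not (-0.79 ± 0.39, edgeR adjusted p = 0.114), with no nt library as low as any knockdown library. The call for Atf3 with sh5 was lost without Atf3_sh5 replicate 1 (-1.20) or without any 1 of the nt libraries (-1.06 to -1.19), and was -0.71 without Atf3_sh5 replicate 3 (edgeR adjusted p = 0.0393). A difference in Atf3 between the hairpins was not detectable at 8 to 41 counts a library (0.35 ± 0.42, 95% interval from -0.58 to 1.27, edgeR adjusted p = 0.504).

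With sh5, 7 members fell and 1 rose, against 18.1% and 17.7% of all genes. With sh6, 9 members rose and none fell, against 23.8% and 26%, and 4 of them, Actg2, Cnn1, Acta2 and Tagln, rose by more than 2-fold, against 4.83% of all genes. The median log2 fold change of the members was -0.42 with sh5 and 0.83 with sh6, and that of all genes -0.03 and -0.02. Both hairpins share the 3 nt libraries.

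Acta2 stood at 2757, 2793 and 2552 CPM with nt, at 1894, 1951 and 1881 CPM with sh5 (-0.50 ± 0.06, edgeR adjusted p = 5e-04) and at 5851, 6175 and 6116 CPM with sh6 (1.16 ± 0.06, edgeR adjusted p = 2.8e-07). Actg2 had 128, 133 and 120 CPM, 96.3, 97.7 and 100.4 CPM, and 394, 433 and 450 CPM in the same order (-0.37 ± 0.07 and 1.74 ± 0.08). For both actins the 3 groups were separated, with sh5 lowest and sh6 highest. Cnn1 had 102, 108 and 104 CPM with nt, 86.3, 85.5 and 75.4 CPM with sh5 (-0.34 ± 0.08) and 343, 331 and 314 CPM with sh6 (1.65 ± 0.08). Tagln had 1096, 1165 and 1109 CPM with nt, 654, 688 and 911 CPM with sh5 (-0.58 ± 0.13) and 2606, 2253 and 2026 CPM with sh6 (1.03 ± 0.13). The same order, sh5 below nt below sh6, held in every library for these actin-binding genes.

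Myl9 (-0.75 ± 0.10 with sh5, 0.69 ± 0.10 with sh6), Tpm2 (-0.51 ± 0.11 and 0.57 ± 0.11) and Myh9 (-0.47 ± 0.08 and 0.33 ± 0.08) likewise fell with sh5 and rose with sh6. Tpm1 (0.02 ± 0.09 and 0.78 ± 0.09) and Actn1 (0.03 ± 0.08 and 0.89 ± 0.08) rose with sh6 and did not pass with sh5. Cald1 was the exception, at 2095, 2065 and 1990 CPM with nt, 2527, 2445 and 2855 CPM with sh5 (0.35 ± 0.07, edgeR adjusted p = 0.0048) and 1835, 1889 and 1872 CPM with sh6 (-0.14 ± 0.07, edgeR adjusted p = 0.129). Tested directly, sh6 was higher than sh5 for 9 members and lower for 1, Cald1, against 25.9% and 26.6% of all genes, and 6 members were higher by more than 2-fold, against 6.36%. Actg2 (2.12 ± 0.08) and Cnn1 (2.00 ± 0.08) differed most between the hairpins (edgeR adjusted p = 7.29e-08 and 8.09e-08). Replicate 3 of sh5, which stood apart from its group, had the highest Tagln and Cald1 of the 3 and the lowest Atf3. Without it the log2 fold changes with sh5 were -0.46 (Acta2), -0.36 (Actg2), -0.26 (Cnn1), -0.72 (Tagln), -0.78 (Myl9), -0.59 (Tpm2), -0.45 (Myh9) and 0.30 (Cald1), all of which passed. Leaving out any single library changed none of these 3 counts of members that passed (sh5 against nt, sh6 against nt, sh6 against sh5).

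**Figure D4:**
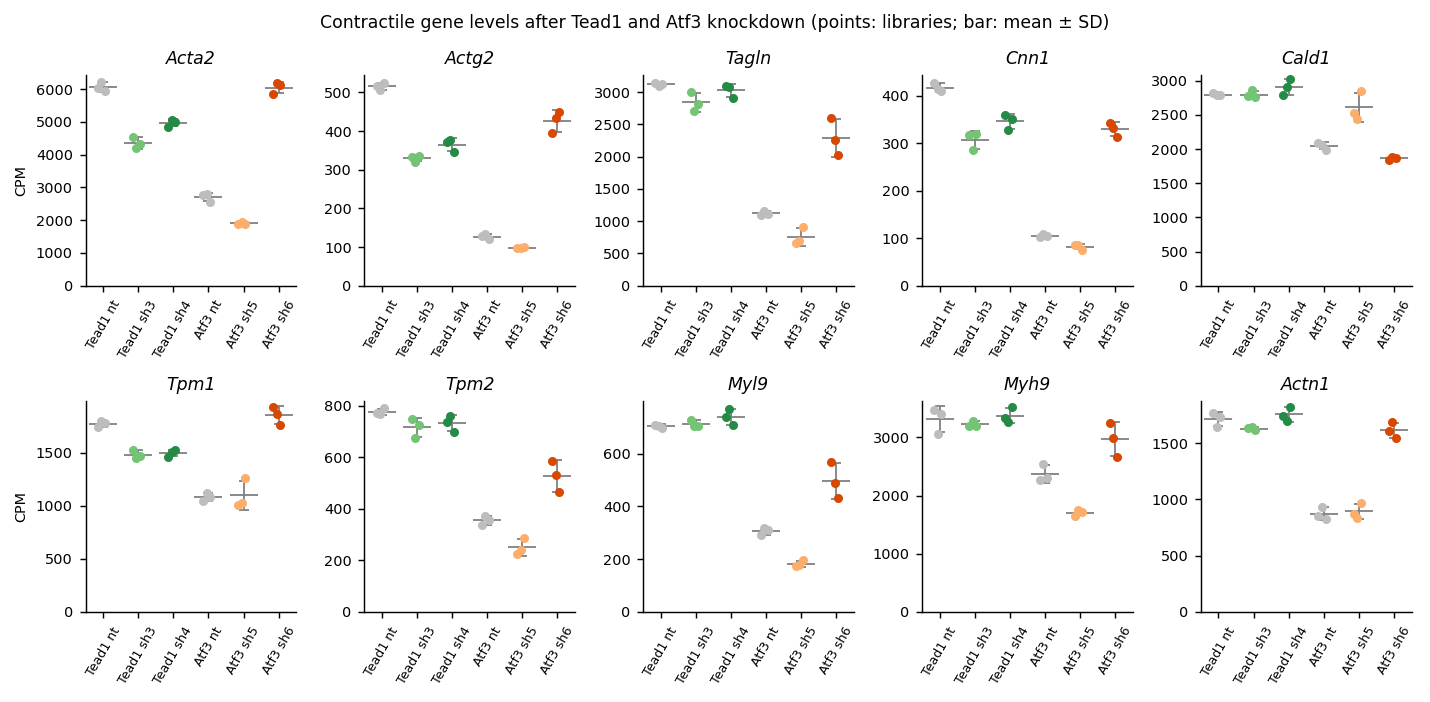
CPM (vertical axis, from 0, a separate scale for each gene) of each contractile gene with the non-targeting hairpin and with 2 hairpins against Tead1 and 2 against Atf3 (3 libraries each); points are libraries and bars the mean ± SD. Acta2, Actg2, Cnn1 and Tagln are lower with Atf3 sh5 and higher with Atf3 sh6 than with nt, and Acta2 and Actg2 are lower with both Tead1 hairpins.

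Genes around the members also differed between the Atf3 hairpins. Over all genes, 17.7% rose and 18.1% fell with sh5, and 23.8% rose and 26% fell with sh6. Of 10 tested further smooth muscle genes, 7 fell and 1 rose with sh5, and 6 rose and 1 fell with sh6. Myh11 stood at 49.3 CPM on average with nt, 17.8 CPM with sh5 (-1.47 ± 0.14) and 186 CPM with sh6 (1.91 ± 0.13), and Lmod1 at 58.8, 31.1 and 170 CPM. Of 18 cytoskeletal genes 7 fell and 3 rose with sh5, and 12 rose and 1 fell with sh6. Of 8 YAP-TEAD and SRF targets 4 fell with sh5, and 3 rose and 2 fell with sh6, Ccn2 going from 540 CPM to 372 CPM with sh5 and to 1790 CPM with sh6. Of 18 regulators 7 fell and 3 rose with sh5, with Srf at -1.01 ± 0.20, and 6 rose and 6 fell with sh6, with Wwtr1 (-1.47 ± 0.06) and Tgfb1 (-1.63 ± 0.15) lower and Tgfb3 (1.10 ± 0.10) higher. Srf was higher with sh6 than with sh5 by 2.04 ± 0.20.

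The contractile and matrix genes of myofibroblasts parted with sh6. Of 10 matrix genes 3 rose and 7 fell, against 23.8% and 26% of all genes. Tnc (1.69 ± 0.08) rose, and Col1a1 fell from 16710 to 4700 CPM (-1.83 ± 0.21) and Lox by 1.75 on the log2 scale. With sh5, 2 rose and 1 fell. Without Atf3_sh5 replicate 3, a choice made after the data were seen, 2 matrix genes rose and 2 fell with sh5, 5 regulators rose and 7 fell, and the smooth muscle, cytoskeletal, target and pericyte lists gave counts within 1.5 times those with all libraries. The fibroblast markers, which include Col1a1 and Col1a2, summed to 29900 to 31490 CPM with nt, 17840 to 28040 CPM with sh5 and 10830 to 11410 CPM with sh6, all 6 detected. The pericyte and vascular smooth muscle markers, which include Myh11, summed to 328 to 368, 126 to 215 and 424 to 447 CPM, all 7 detected. Of these 7, none rose and 3 fell with sh5 (median log2 fold change -0.35), and 2 (Mcam and Myh11) rose and 4 fell with sh6 (median -1.19). The skeletal muscle markers summed to 35.9 to 37.4, 14.4 to 17.8 and 198 to 216 CPM. Of these 8 markers only 3 were tested: none rose and 1 fell with sh5, and 2 rose and 1 fell with sh6. Myog was at 0 with sh6. E2f4 was higher with sh6 than with nt by 0.67 ± 0.10 on the log2 scale. The part of these differences in those of the contractile genes was not tested.

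**Figure D5:**
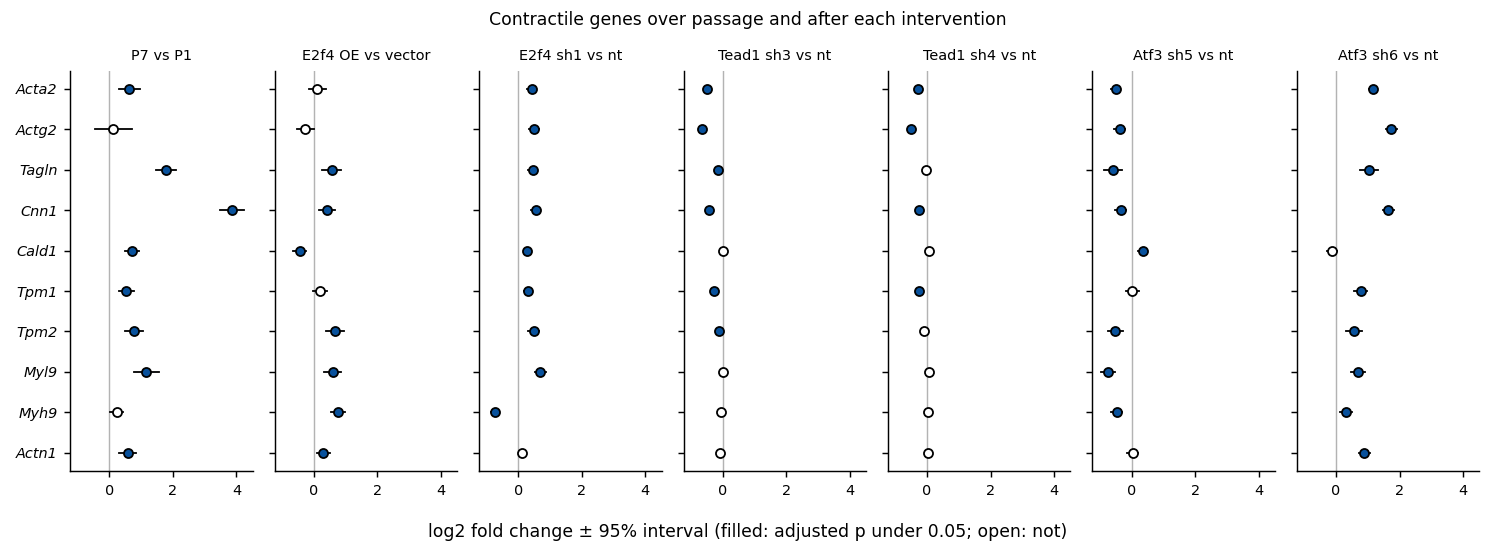
Log2 fold change (horizontal axis) of each contractile gene in 7 comparisons; points are estimates, bars 95% intervals, filled points passed at an adjusted p under 0.05 and open points did not. Cnn1 between P1 and P7 lies farthest right at 3.87, most points lie right of 0 with E2f4 OE, E2f4 sh1 and Atf3 sh6, and most lie left of 0 or close to it with the Tead1 hairpins and Atf3 sh5, where Cald1 is at 0.35.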

How the data were processed

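RNA-seq and ATAC-seq of mouse skin fibroblasts were analysed from the deposited tables. The RRBS samples were not analysed here. The authors deposited gene-level read counts, not normalized, for each RNA-seq library. According to the submitters' processing notes and the methods, reads were trimmed with Trimmomatic 0.39, mapped to mm10 with HISAT2 2.2.1 and counted with HTSeq 0.12.4 without regard to strand. In 28 libraries the 5 summary lines of HTSeq (7.5% to 16.8% of the column) were left out of totals and tests. ATAC-seq reads were aligned with Bowtie2 and freed of duplicates, and the authors deposited MACS2 peak lists called per sample with reads shifted and extended around the transposase cut, with the −log10 p and q and the fold enrichment of each peak. These files give no read depth, so no interval was computed for them.

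Counts were filtered (filterByExpr), scaled by TMM and tested with the quasi-likelihood test of edgeR 4.0.16 in R 4.3.3, with 1 fit per experiment and no block. p-values were adjusted over all genes tested (Benjamini-Hochberg). A gene passed at an adjusted p under 0.05, and a change of more than 2-fold was counted separately. Intervals are 95%. Peaks were compared by an exact two-sided permutation test over samples (NumPy 2.4.6), with the percentile of the strongest peak within 1 kb of a start site as the measure. Where a gene has several start sites, the one with the strongest peak was kept. Library totals are given with the results, and intervals cover the spread between these libraries. The fits were tested on simulated data.

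Alternatives were DESeq2 1.42.0, other scalings, other low-count filters (none, or at least 10 counts in every library), a replicate block, fits to the compared groups only, other windows and peak measures, and leaving out each library. RefSeq annotation of GRCm38.p6 gave positions, exon lengths and sequences. It matched 24435 gene symbols directly and 435 by older symbols, and left 114 unmatched.

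The members and lists were chosen with earlier results of these data known. Named are all members, up to 4 genes per list and comparison with the largest log2 fold change among those that passed at an average log2 CPM of at least 3, all regulators in the passage course, the targeted genes, and the 8 genes most correlated with the members. Results for 1 gene list and 1 further gene are not reported here. The value of Myh11 between P1 and P7 was added after it was seen.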

Additional observations from a re-analysis of the deposited data

Results flagged for a closer look

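In groups of 4 samples, 50 sets of values (CPM of the 10 members at each of the 4 passages, and their ATAC-seq percentiles at P1) were examined for a library standing apart by Dixon's test, which chance flags in about 1 of 20 sets, and 2 stood apart. Both were in P3 replicate 4. Actg2 was at 452.8 CPM there, with the other P3 libraries between 177.7 and 210.4 CPM, and Cald1 was at 2576 CPM, with the others between 2053 and 2091 CPM. The same library also held the highest Acta2 value of the passage course.

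The hairpins against the same gene gave different values for 13 of 20 differences tested directly with edgeR. Between the Tead1 hairpins, sh4 was higher than sh3 on the log2 scale by 0.19 for Acta2, 0.17 for Cnn1 and 0.15 for Actg2. Between the Atf3 hairpins, sh6 was higher than sh5 by 2.12 for Actg2, 2.00 for Cnn1, 1.66 for Acta2, 1.61 for Tagln, 1.45 for Myl9, 1.07 for Tpm2, 0.85 for Actn1, 0.80 for Myh9 and 0.75 for Tpm1. Cald1 alone differed the other way, at -0.48. A difference in residual Atf3 RNA between these hairpins was not detectable at this depth (8 to 41 counts with sh5, 26 to 36 with sh6). E2f4 knockdown was represented by 1 hairpin, so the same comparison was not made there.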

How the results depend on the processing

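Of 890 fold changes of the members under alternatives other than leaving out a library, 868 kept their direction and their side of the threshold, 16 newly passed, 3 no longer passed and 3 reversed. Of 860 with a library left out, 799 were kept, 18 newly passed, 24 no longer passed and 19 reversed. None of the 22 that reversed had passed, before or after. With no scaling factors these were Actg2 from P1 to P7 (-0.08) and, from P3 to P7, Actn1 (-0.04) and Cald1 (-0.03). With a library left out, the log2 values ran from P3 to P5 between -0.05 and 0.16 (Cnn1), -0.04 and 0.08 (Myh9), -0.22 and 0.16 (Myl9), and -0.15 and 0.06 (Tpm2). From P3 to P7 they ran between -0.29 and 0.02 (Acta2), -0.15 and 0.02 (Myh9), and -0.07 and 0.16 (Actn1). For Actg2 they ran between -0.12 and 0.29 from P1 to P7 and between -0.13 and 0.31 from P5 to P7. The others were Acta2 with E2f4 overexpression (-0.07 to 0.31), Tpm2 between the Tead1 hairpins (-0.01 to 0.07), Myh9 with Tead1 sh4 (-0.03 to 0.06), and Tpm1 (-0.06 to 0.08) and Actn1 (-0.01 to 0.09) with Atf3 sh5.

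The number of members that passed from P3 to P5, 1, was 2 with no scaling factors, 2 with no low-count filter, 3 with a replicate block, 0 with only the groups compared, and 0 to 3 with a library left out. Leaving out a library gave 4 to 9 members in place of 7 for E2f4 overexpression and 1 to 4 in place of 3 between the Tead1 hairpins. Elsewhere it gave 5 to 9 (P1 to P3), 8 to 9 (P1 to P7), 4 to 5 (P3 to P7), 5 to 6 (P5 to P7), 9 to 10 (E2f4 sh1), 4 to 8 (Tead1 sh3), 4 (Tead1 sh4), 8 (Atf3 sh5), 9 (Atf3 sh6), 10 (sh6 against sh5) and 6 to 7 (ATAC-seq). Bases covered by peaks gave 3 ATAC-seq members in place of 6. The causes were not tested.

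Replicate numbers were not treated as pairing the samples, since the labels name no pairing. Correlations of deviations from group means between same-numbered libraries were mixed and do not settle whether the passages form series. Acta2 was highest in replicate 4 at P1, P3 and P5 (2364, 4471 and 2847 CPM) and not at P7 (2832 CPM, with 3760 CPM in replicate 2). The paper describes its RRBS samples as independent series over passages and does not say whether the RNA-seq libraries form such series. Correlations ran from -0.262 to 0.276 over the passages (11 of 24 pairs over 0.1, among them all 6 pairs of replicate 4). They ran from -0.158 to 0.137 (Atf3), -0.045 to 0.112 (Tead1) and 0.023 to 0.034 (E2f4 knockdown). With E2f4 overexpression the 2 pairs must give the same value, 0.142, because deviations from a mean of 2 libraries mirror each other. A replicate block lost 0 and gained 6 of 130 member calls. These were Myl9 (0.38) and Actg2 (0.64) from P1 to P3, Acta2 (-0.39) and Actg2 (-0.63) from P3 to P5, Actg2 (-0.48) from P3 to P7 and Actg2 (-0.27) with E2f4 overexpression. With 2 libraries a group, E2f4 overexpression rests on the fewest samples, and Atf3 itself was limited by its low counts.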
